A study of Mus musculus with 3 samples.

Results

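The granins are the acidic soluble proteins that fill the dense-core granules of endocrine and neuronal cells. The 8 genes described here were chosen by name, with earlier results of these data known. They were the chromogranins Chga and Chgb, the secretogranins Scg2, Scg3 and Scg5, and the granin-like genes Vgf, Pcsk1n and Resp18. All 8 were found among the 24271 genes with a symbol, as 11 of the 59120 transcript models listed. Granins aggregate with hormone precursors in the acidic, calcium-rich trans-Golgi, which drives the budding of granules. Many are then cut at pairs of basic residues into peptides of their own. In the gut they mark enteroendocrine cells, and Chga is the usual marker of that class.

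The levels come from 3 libraries of polyadenylated RNA, 1 per group, from C57BL/6 mice, whose upper small intestinal villus fraction was dissociated and sorted by flow cytometry. GIP-GFP held cells that express the incretin hormone GIP, sorted by green fluorescence. Ngn3-TOMATO held cells derived from progenitors that expressed Neurogenin3, sorted from male offspring of Ngn3-Cre mice crossed to ROSA26-LoxP-STOP-LoxP-tomato mice. Because Cre removes the stop for good, any descendant of a Neurogenin3-expressing cell carries the label, whatever it became. Ngn3-neg held the tomato-negative epithelial cells of the same cross. No library of GFP-negative cells sorted beside GIP-GFP is among the 3, so GIP-GFP is compared with the negative sort of the tomato cross. Cells stained for CD45, a blood cell antigen, were excluded from both tomato sorts, and the design text states neither such a gate nor the sex of the mice for GIP-GFP. Each library was a pool of equal amounts of RNA from individual samples, and the number of mice and their age are not given in the sources used here. With 1 library per group no difference has a replicate check and no test was made. Intervals are 95% counting intervals within these libraries.

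Levels are scaled FPKM, the deposited FPKM summed per gene and divided by 1 common number so that libraries average 1000000 in total. They are corrected for transcript length, so genes can be compared with each other. The libraries held 592.1 Mb (GIP-GFP), 1380 Mb (Ngn3-TOMATO) and 1030 Mb (Ngn3-neg) of read bases. Neurod1, a factor of endocrine differentiation, stood at 391 in GIP-GFP and 604 in Ngn3-TOMATO, against 11.2 in Ngn3-neg, and Gip itself at 240218, 27879 and 726 in the same libraries. Of the other enteroendocrine markers outside the granins, Pcsk1 was also lower in GIP-GFP than in Ngn3-TOMATO (425 against 574). Higher in GIP-GFP were Isl1 (769.7 against 147), Pax6 (500.7 against 113.5), Rfx6 (1062 against 204.9) and Fev (254.1 against 169.4). Summed goblet cell markers (6 of 7 comparable, each detected in every library) came to 5336 in GIP-GFP and 170300 in Ngn3-TOMATO, against 30820 in Ngn3-neg. The 6 Paneth cell markers summed to 2326, 27230 and 4831, and the 10 enterocyte markers to 12470, 8940 and 43680, in that order. The 7 leukocyte markers summed to 274 in GIP-GFP and 48.0 in Ngn3-TOMATO, against 116 in Ngn3-neg, most of it from the granzyme gene Gzma (242, 35.9 and 94.1). The 6 tuft cell markers summed to 19.4, 141.5 and 69.8, with Il25 listed at 0 in GIP-GFP. The part of these other cells in the granin differences was not tested.

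Promoter sequences are shown for 4 members whose levels contrast between the reporter libraries, with Chga farthest below Ngn3-TOMATO in GIP-GFP, Scg5 and Scg2 farthest above, and Chgb the most abundant. They are RefSeq windows on GRCm38.p6, from 250 bases before to 50 after the RefSeq start, and capitals mark each TGACG on either strand, the core of the cyclic AMP response element.
Chga, chr12:102554691-102554990, plus strand: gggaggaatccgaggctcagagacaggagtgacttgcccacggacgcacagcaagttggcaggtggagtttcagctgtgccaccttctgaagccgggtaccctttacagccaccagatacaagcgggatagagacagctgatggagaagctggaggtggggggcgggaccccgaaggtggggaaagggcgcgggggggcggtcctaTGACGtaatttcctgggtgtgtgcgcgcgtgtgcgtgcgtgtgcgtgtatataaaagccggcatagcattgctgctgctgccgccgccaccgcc
Chgb, chr2:132781392-132781691, plus strand: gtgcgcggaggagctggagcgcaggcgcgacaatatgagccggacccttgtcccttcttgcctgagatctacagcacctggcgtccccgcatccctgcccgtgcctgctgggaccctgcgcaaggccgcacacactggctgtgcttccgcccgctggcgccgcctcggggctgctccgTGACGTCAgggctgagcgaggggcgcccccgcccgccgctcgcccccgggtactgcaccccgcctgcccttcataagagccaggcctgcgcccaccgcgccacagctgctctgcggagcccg
Scg2, chr1:79439977-79440276, minus strand: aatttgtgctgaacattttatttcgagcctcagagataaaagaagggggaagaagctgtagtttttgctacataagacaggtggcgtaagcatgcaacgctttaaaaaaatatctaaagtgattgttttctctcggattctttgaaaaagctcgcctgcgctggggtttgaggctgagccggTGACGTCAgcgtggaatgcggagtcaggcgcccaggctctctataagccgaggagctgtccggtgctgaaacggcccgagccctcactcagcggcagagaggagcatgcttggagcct
Scg5, chr2:113829042-113829341, minus strand: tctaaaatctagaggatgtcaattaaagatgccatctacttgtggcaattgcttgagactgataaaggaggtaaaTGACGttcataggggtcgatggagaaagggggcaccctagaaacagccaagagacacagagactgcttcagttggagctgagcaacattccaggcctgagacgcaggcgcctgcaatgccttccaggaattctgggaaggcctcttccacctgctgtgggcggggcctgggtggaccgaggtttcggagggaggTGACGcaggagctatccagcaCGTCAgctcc

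The full element TGACGTCA, which is its own reverse complement and so holds the core on both strands, was found in Chgb at position -72 and in Scg2 at position -68, counted back from the RefSeq start. It occurred in 1.79% of the 32851 promoter windows of the table. Chga carried the variant TGACGTAA at position -44, on the plus strand of the gene, a word found on either strand in 0.499% of windows. The core TGACG alone, present in 20.8% of windows, was found 3 times in Scg5 and 1 time in Scg3, and not in the windows of Pcsk1n and Resp18. Of the 8 members 7 had a window in the table. The start used by the deposited transcript lay 28 bases downstream of the RefSeq start in Chga, 64 bases upstream in Scg2, 364 bases upstream in Chgb and at the same base in Scg5.

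All 8 granins were more abundant in both reporter libraries than in Ngn3-neg. Relative to Ngn3-neg, the median member was 55.1-fold higher in GIP-GFP (log2 5.78) and 61.2-fold higher in Ngn3-TOMATO (log2 5.94). The 2 reporter libraries nevertheless held different mixtures. In Ngn3-TOMATO the members lay close together, from 36.97-fold to 70.2-fold over Ngn3-neg, whereas in GIP-GFP they ran from 2.57-fold for Chga to 139.4-fold for Scg2. These values hold for a pseudocount of 1, the constant added to each level. With 5 the Ngn3-TOMATO range widened to log2 4.09 (Pcsk1n) to 6.09 (Chga), against 1.33 (Chga) to 6.78 (Scg2) in GIP-GFP. Between the reporter libraries Chga and Vgf were lower in GIP-GFP, by 27.3-fold and 6.92-fold, and Scg2, Scg3 and Scg5 were a little over 2-fold higher. A lower level in a bulk library can come from fewer cells that hold the transcript or from less of it in each cell, and these cannot be told apart here.

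**Figure D1:**
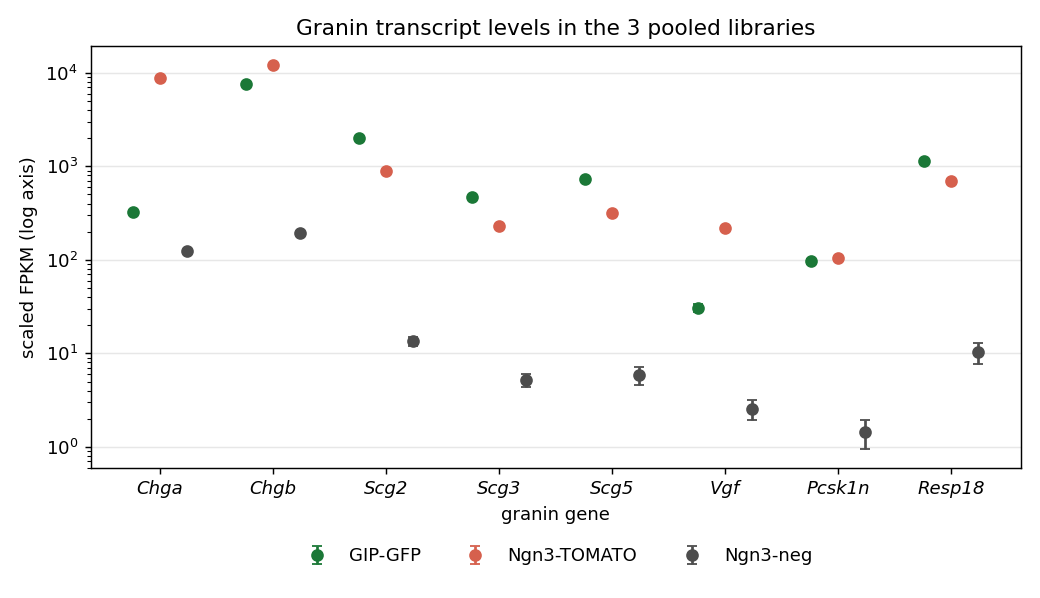
Scaled FPKM (log axis) of each granin in GIP-GFP (green), Ngn3-TOMATO (red) and Ngn3-neg (grey), 1 pooled library each; bars are 95% counting intervals, mostly smaller than the points. Every member is lowest in Ngn3-neg, and Chga stands at 321 in GIP-GFP and 8793 in Ngn3-TOMATO.

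Counted against all genes, 8 of 8 members were at least 2-fold higher in GIP-GFP than in Ngn3-neg, where 21.1% of 13484 genes were, and 7 of 8 were at least 4-fold higher, against 10.1% of genes. None was lower, where 13.8% of genes were by 2-fold or more and 2.78% by 4-fold or more. In Ngn3-TOMATO over Ngn3-neg, 8 of 8 were at least 2-fold higher, against 19.2% of 13460 genes, with 9.93% of genes at least 2-fold lower. Scaled to equal library totals those shares of genes were 16.6% and 14.6%, and the members' count stayed at 8. At 4-fold the count was also 8 of 8, against 8.83% of genes, and 0 of 8 were 4-fold lower, against 1.89% of genes. The median over all genes was 0.07 (GIP-GFP) and 0.03 (Ngn3-TOMATO) on the log2 scale. Between GIP-GFP and Ngn3-TOMATO 3 of 8 members were at least 2-fold higher in GIP-GFP, against 8.07% of 13757 genes, and 2 of 8 at least 2-fold lower, against 8.76% of genes. Both lower members, Chga and Vgf, also passed 4-fold, as did 3.22% of genes, and 0 members were 4-fold higher, against 2.09% of genes. The member median there was log2 0.30, against 0.08 over all genes. GIP-GFP and Ngn3-TOMATO are compared with the same Ngn3-neg library, so the first counts are not independent of each other.

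**Figure D2:**
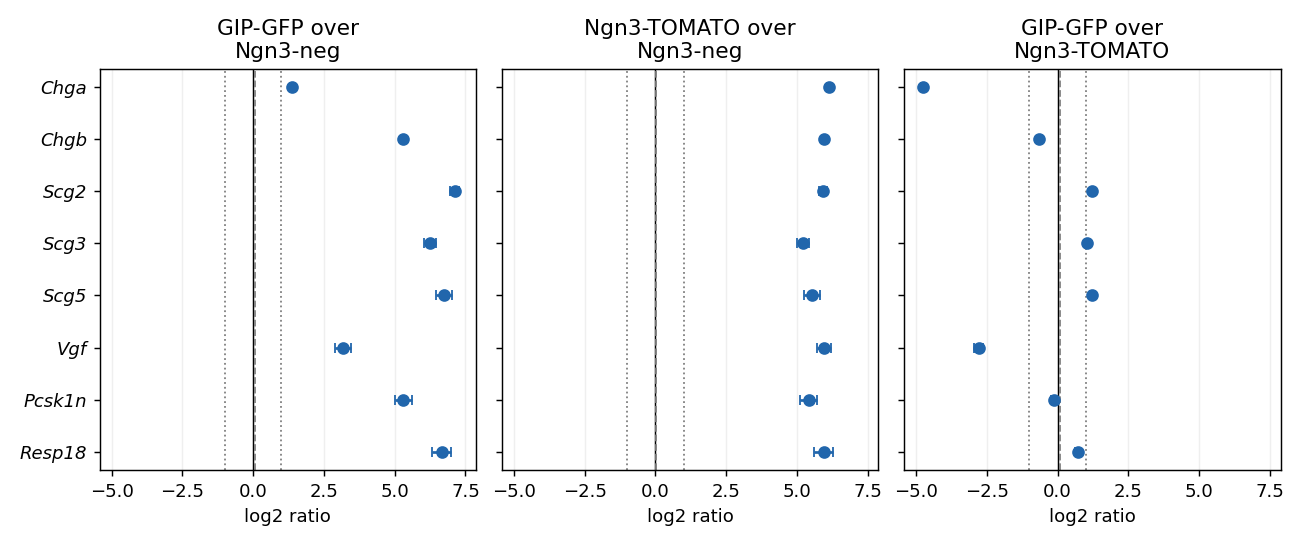
Log2 ratio of scaled FPKM plus 1 for each granin in the 3 comparisons, with 95% counting intervals; the dashed grey line is the median of all genes compared and dotted lines mark 2-fold. The members cluster between 5.21 and 6.13 in Ngn3-TOMATO over Ngn3-neg and spread from -4.77 to 1.21 in GIP-GFP over Ngn3-TOMATO.

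The chromogranins form the bulk of the granule matrix. Chga, the precursor of pancreastatin and catestatin (transcript uc007oui.1, mm10 chromosome 12, 102554969 to 102565027, plus strand), stood at 321 scaled FPKM in GIP-GFP and 8793 in Ngn3-TOMATO, against 124 in Ngn3-neg. Its level in GIP-GFP was thus far nearer to Ngn3-neg than to Ngn3-TOMATO. The log2 ratio was 1.36 (1.29 to 1.43) for GIP-GFP over Ngn3-neg, 6.13 (6.08 to 6.19) for Ngn3-TOMATO over Ngn3-neg and -4.77 (-4.82 to -4.73) for GIP-GFP over Ngn3-TOMATO. Of all genes compared between the reporter libraries, 0.262% had a ratio as low as that of Chga or lower. It ranked number 317 among genes in GIP-GFP, number 10 in Ngn3-TOMATO and number 1359 in Ngn3-neg.

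Chgb, the second chromogranin (uc008mnf.1, chromosome 2, 132781278 to 132795072, plus strand), was the most abundant granin of every library. It stood at 7629.7 scaled FPKM in GIP-GFP and 12040.5 in Ngn3-TOMATO, against 191 in Ngn3-neg. Unlike Chga it was high in both reporter libraries, with rank 5 in GIP-GFP and rank 9 in Ngn3-TOMATO. The log2 ratio was 5.31 (5.28 to 5.34) for GIP-GFP and 5.97 (5.93 to 6.00) for Ngn3-TOMATO over Ngn3-neg, and -0.66 (-0.67 to -0.65) between the reporter libraries. Within a library, where no scaling between libraries enters, Chga amounted to 4.2% of Chgb in GIP-GFP (4.07% to 4.34%), 73.0% in Ngn3-TOMATO (72.7% to 73.4%) and 65.0% in Ngn3-neg (62.2% to 67.8%). The proportion of the chromogranins was therefore 17.4 times as high in Ngn3-TOMATO as in GIP-GFP.

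The secretogranins Scg2 and Scg3 differed between the libraries in the opposite direction from Chga. Scg2, the precursor of secretoneurin (chromosome 1, 79434669 to 79440090, minus strand), stood at 2030.2 scaled FPKM in GIP-GFP and 882 in Ngn3-TOMATO, against 13.6 in Ngn3-neg. It was the second granin of GIP-GFP, with rank 16 among all genes there and rank 100 in Ngn3-TOMATO. The log2 ratio was 7.12 (6.97 to 7.27) for GIP-GFP over Ngn3-neg, 5.92 (5.77 to 6.07) for Ngn3-TOMATO over Ngn3-neg and 1.20 (1.18 to 1.23) for GIP-GFP over Ngn3-TOMATO. Scg3, which binds chromogranin A and cholesterol-rich granule membrane (chromosome 9, 75643366 to 75684056, minus strand), stood at 473 in GIP-GFP and 228 in Ngn3-TOMATO, against 5.21 in Ngn3-neg. Its log2 ratios were 6.26 (6.05 to 6.46), 5.21 (5.0 to 5.41) and 1.05 (0.99 to 1.10) in the same order of comparisons, the last being 0.97, short of 2-fold, when the median ratio over all genes was set to 1. In GIP-GFP the Scg3 level was 1.48 times that of its binding partner Chga (1.41 to 1.54). In Ngn3-TOMATO it was 2.60% of Chga and in Ngn3-neg 4.19%, so the order of the pair was reversed in GIP-GFP alone among the libraries.

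Scg5 and Pcsk1n encode small proteins that bind and restrain the prohormone convertases, the proteases that cut hormone precursors. Scg5, which encodes the chaperone and inhibitor of the convertase of Pcsk2 (uc008lpq.1, chromosome 2, 113776313 to 113829091, minus strand), stood at 738 scaled FPKM in GIP-GFP and 319 in Ngn3-TOMATO, against 5.89 in Ngn3-neg. The log2 ratio was 6.75 (6.48 to 7.02) for GIP-GFP and 5.54 (5.27 to 5.81) for Ngn3-TOMATO over Ngn3-neg, and 1.21 (1.16 to 1.26) between the reporter libraries. Its partner Pcsk2 was far less abundant, at 18.5 in GIP-GFP and 9.17 in Ngn3-TOMATO, against 0.0173 in Ngn3-neg. Scg5 was 39.9 times Pcsk2 in GIP-GFP (36.6 to 43.4) and 34.7 times in Ngn3-TOMATO (32.1 to 37.6).

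Pcsk1n, which encodes proSAAS, an inhibitor of the convertase of Pcsk1 (uc009snf.2, chromosome X, 7919822 to 7924410, plus strand), stood at 96.5 scaled FPKM in GIP-GFP and 104.7 in Ngn3-TOMATO, against 1.46 in Ngn3-neg. It was the member whose levels were most alike in the reporter libraries, with a log2 ratio of -0.12 (-0.21 to -0.02) for GIP-GFP over Ngn3-TOMATO. Over Ngn3-neg the ratio was 5.31 (5.0 to 5.61) for GIP-GFP and 5.43 (5.13 to 5.72) for Ngn3-TOMATO. Here the transcript of the protease was above that of its inhibitor in every library. Pcsk1 stood at 425 in GIP-GFP and 574 in Ngn3-TOMATO, against 15.3 in Ngn3-neg, so that Pcsk1n amounted to 22.7% of Pcsk1 in GIP-GFP and 18.3% in Ngn3-TOMATO, against 9.54% in Ngn3-neg. The interval of the last as a ratio was 0.067 to 0.136, since Pcsk1n in Ngn3-neg rests on the equivalent of 32.9 fragments, the fewest of any member.

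Vgf and Resp18 complete the set. Vgf, a nerve growth factor-inducible precursor cut into several neuroendocrine peptides (uc009abl.1, chromosome 5, 137030260 to 137033351, plus strand), stood at 30.9 scaled FPKM in GIP-GFP and 219.9 in Ngn3-TOMATO, against 2.56 in Ngn3-neg. It was the least abundant granin of GIP-GFP, at rank 5404 among all genes, against rank 540 in Ngn3-TOMATO. The log2 ratio was 3.16 (2.88 to 3.45) for GIP-GFP over Ngn3-neg, 5.95 (5.71 to 6.20) for Ngn3-TOMATO over Ngn3-neg and -2.79 (-2.94 to -2.64) for GIP-GFP over Ngn3-TOMATO. Resp18, a gene of the endocrine secretory pathway first described in the rat pituitary (chromosome 1, 75272202 to 75278380, minus strand), stood at 1143 in GIP-GFP and 699.6 in Ngn3-TOMATO, against 10.3 in Ngn3-neg. Its log2 ratios in the same order of comparisons were 6.66 (6.33 to 6.99), 5.95 (5.61 to 6.29) and 0.71 (0.61 to 0.80). It was higher in GIP-GFP than in Ngn3-TOMATO by 1.63-fold, short of 2-fold. The annotated gene Gm28902 overlaps Resp18 on the other strand over 3048 bases, and Gm37871 overlaps Scg3. Neither has transcripts of its own in the tables, and if reads were counted without strand, those of either would count towards Resp18 or Scg3.

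Added together, granins came to 12462 scaled FPKM in GIP-GFP and 23288 in Ngn3-TOMATO, against 354.6 in Ngn3-neg, which was 1.20%, 2.19% and 0.0395% of the summed genes of these libraries. The difference between the reporter libraries lay mainly in Chga, since without Chga and Vgf the sums were 12111 in GIP-GFP and 14274 in Ngn3-TOMATO. Chgb was the largest share of the family in each, with 61.2% in GIP-GFP and 51.7% in Ngn3-TOMATO, against 53.9% in Ngn3-neg. The next place went to Scg2 in GIP-GFP, with 16.3%, and to Chga in both other libraries, with 37.8% in Ngn3-TOMATO and 35.1% in Ngn3-neg. Chga made up 2.57% of the GIP-GFP family sum. Set against Chgb of the same library, Scg2 was 26.6% in GIP-GFP and 7.33% in Ngn3-TOMATO, Scg5 9.67% and 2.65%, Resp18 15% and 5.81%, and Scg3 6.20% and 1.90%. Vgf, by contrast, was 0.405% of Chgb in GIP-GFP and 1.83% in Ngn3-TOMATO.

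**Figure D3:**
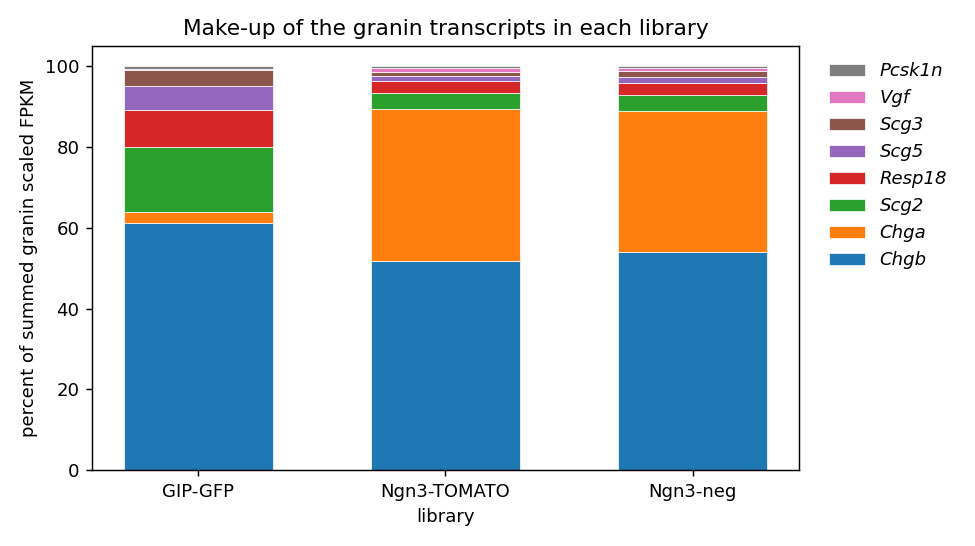
Share of each granin in the summed granin scaled FPKM of GIP-GFP, Ngn3-TOMATO and Ngn3-neg, in percent. Chga takes 2.57% of the GIP-GFP bar and 37.8% and 35.1% of the Ngn3-TOMATO and Ngn3-neg bars.

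The order of the members by level in GIP-GFP was Chgb, Scg2, Resp18, Scg5, Scg3, Chga, Pcsk1n and Vgf, with no overlap between the intervals of neighbours. In Ngn3-TOMATO it was Chgb, Chga, Scg2, Resp18, Scg5, Scg3, Vgf and Pcsk1n, and the same order held in Ngn3-neg. In Ngn3-TOMATO Scg3 and Vgf, at 228 and 219.9, overlapped in their intervals. In Ngn3-neg Scg2 overlapped with Resp18 and Scg5 with Scg3, so their places there are not separated. The members' fragment equivalents, which fall with uncertain read assignment as well as with low depth, ran from 368 (Vgf) to 144000 (Chgb) in GIP-GFP. In Ngn3-TOMATO they ran from 1230 (Resp18) to 586000 (Chgb). The fewest read bases there were those of Pcsk1n, at 154 kb, against 318 kb for Resp18. In Ngn3-neg the fragment equivalents ran from 32.9 (Pcsk1n) to 6970 (Chgb) and limit the low members most.

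Hormone precursors are the cargo that granins are packed with. Of the genes for gut peptide precursors, 12 of 13 compared were at least 2-fold higher in GIP-GFP and 12 of 12 in Ngn3-TOMATO, each over Ngn3-neg, against 21.1% and 19.2% of all genes, and their medians were log2 4.75 and 5.94. Between GIP-GFP and Ngn3-TOMATO 2 of 13 passed 2-fold upwards and 6 downwards in GIP-GFP, against 8.07% and 8.76% of all genes, with a median of -0.78. The higher ones were Gip (240218 against 27879) and Pyy, the peptide YY precursor (4356 against 1623). The lower ones ran from 6.41-fold for Ghrl (1139 against 7307) to 113.7-fold for Cartpt (1.04 against 230.9). Between these lay Gast (24.97-fold), Tac1 (22.02-fold), Gcg (8.36-fold) and Nts (7.165-fold). Among the abundant ones Sct, for secretin, stood at 18937 in GIP-GFP and 16587 in Ngn3-TOMATO, Sst, for somatostatin, at 15349 and 18339, and Cck, for cholecystokinin, at 9233 and 15896. Granins amounted to 4.28 per 100 of these hormone transcripts in GIP-GFP and 23.8 in Ngn3-TOMATO, against 20 in Ngn3-neg. Leaving Gip out of the hormone sum, the values were 24.6, 33.3 and 33.9. A pooled library does not show which cells held Sct, Sst and Cck in GIP-GFP.

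**Figure D4:**
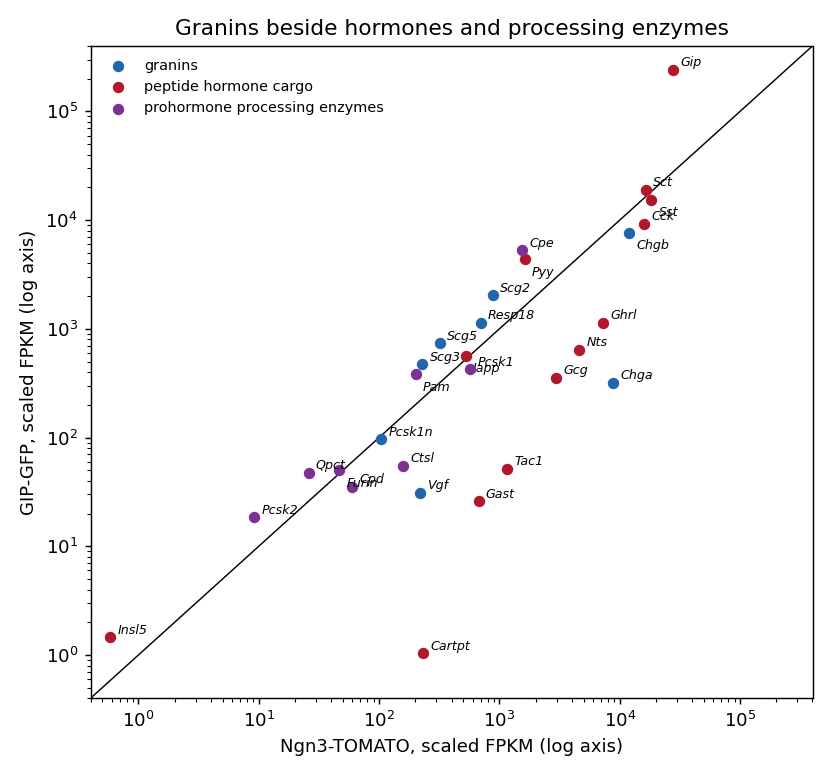
Level in GIP-GFP against level in Ngn3-TOMATO (both scaled FPKM, log axes) of granins (blue), peptide hormone precursors (red) and prohormone processing enzymes (purple), with the line of equality. Chga (321 and 8793) and Vgf (30.9 and 219.9) lie below the line, and Scg2, Scg3, Scg5 and Resp18 above it.

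Of 8 enzymes that process prohormones and granins alike, 6 were at least 2-fold higher in GIP-GFP and 6 in Ngn3-TOMATO, each over Ngn3-neg, against 21.1% and 19.2% of all genes, with medians of log2 4.46 and 3.57. Cpe, the carboxypeptidase that trims basic residues after cleavage, stood at 5276 in GIP-GFP and 1555 in Ngn3-TOMATO, against 28.7 in Ngn3-neg. Pam, which amidates peptides, stood at 380.4, 201 and 8.09 in the same libraries. Ctsl, a protease of lysosomes and of some neuropeptide granules, was lower in GIP-GFP than in Ngn3-TOMATO (54.7 against 158.7) and stood at 17.8 in Ngn3-neg. Between the reporter libraries only Cpe (log2 1.76) and Ctsl (log2 -1.52) of the 8 passed 2-fold, 1 in each direction, which is near the all-gene shares of 8.07% higher and 8.76% lower.

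Granule membrane genes followed with smaller ratios. Of the 11 compared, 9 were at least 2-fold higher in GIP-GFP (median log2 1.78) and 10 in Ngn3-TOMATO (median 2.40), each over Ngn3-neg, against 21.1% and 19.2% of all genes. Ptprn2, a phosphatase-like granule protein, stood at 737 in GIP-GFP and 311 in Ngn3-TOMATO, against 10.6 in Ngn3-neg, and was the 1 member at least 2-fold higher in GIP-GFP than in Ngn3-TOMATO, with 3 at least 2-fold lower (all genes 8.07% higher and 8.76% lower). One of those was Slc18a1, the vesicular monoamine transporter, at 39.4 in GIP-GFP and 331 in Ngn3-TOMATO, against 11.1 in Ngn3-neg. The vesicle SNARE gene Vamp2 stood at 210.2, 154.7 and 46.3 in these libraries, and the electron carrier gene Cyb561 at 108, 110.1 and 90.6. Genes of granule biogenesis and sorting differed least. At least 2-fold higher over Ngn3-neg were 6 of 14 in GIP-GFP and 3 of 13 in Ngn3-TOMATO, against 21.1% and 19.2% of all genes, so that the count in Ngn3-TOMATO is near the background. Their medians were log2 0.87 and 0.43, and none of 14 passed 2-fold between the reporter libraries. Hid1, needed for dense-core granule formation, stood at 62.6 in GIP-GFP and 105.2 in Ngn3-TOMATO, against 16.8 in Ngn3-neg, and Pick1, a membrane-shaping protein of immature granules, at 143.6, 72.1 and 37.9. Rab2a, a small GTPase of granule maturation, stood at 223.8, 203.8 and 151 in that order, and the arfaptin gene Arfip1 at 83.1, 69.4 and 83.2.

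Among regulators tied to granin genes, 8 of 15 were at least 2-fold higher in GIP-GFP and 8 of 15 in Ngn3-TOMATO than in Ngn3-neg, against 21.1% and 19.2% of all genes, with medians of log2 1.24 and 1.18. Between the reporter libraries 4 of 15 passed 2-fold, all of them higher in GIP-GFP, against 8.07% of all genes. Insm1, a zinc-finger factor of endocrine differentiation, stood at 543.7 in GIP-GFP and 241.7 in Ngn3-TOMATO, against 6.80 in Ngn3-neg. Rfx6 stood at 1062, 204.9 and 6.58 and Isl1 at 769.7, 147 and 3.23 in the same libraries, and both are factors that islets and gut endocrine cells share. Neurod1, also among the 4 most abundant, was instead lower in GIP-GFP than in Ngn3-TOMATO (391 against 604, log2 -0.62). Rest, which represses granin and other neuronal genes outside endocrine cells, was the only member at least 2-fold lower in GIP-GFP than in Ngn3-neg (3.27 against 8.60), with 4.21 in Ngn3-TOMATO. Of 4 reported receptors for granin-derived peptides, C1qbp, a mainly mitochondrial protein, stood at 114 in GIP-GFP and 111 in Ngn3-TOMATO, against 264 in Ngn3-neg. Gpr171 stood at 1.19, 0.202 and 0.717, C3ar1 was at 0.0479 in Ngn3-TOMATO and listed at 0 in the other libraries, and Gpr83 was listed at 0 in all.

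By distance in the pair of log2 ratios over Ngn3-neg, among 10466 genes at 10 scaled FPKM or more in some library, the genes nearest to the members' median were Sst, Adgrg4, Iapp, Sct and Gm38182, at 0.237 to 0.418 log2 units. Of these Gm38182 was listed at 0 in Ngn3-neg. The nearest to Chga were Trpm2 (7.09 in GIP-GFP, 143 in Ngn3-TOMATO, 2.05 in Ngn3-neg) and Pla2g7 (2.74, 112 and 1.11). They lay farther off, at 0.568 and 0.662 log2 units. The nearest to Vgf were Ambp (98.6, 892 and 9.68) and Arc (26.6, 123.7 and 2.35), at 0.435 and 0.744. Those of Scg2 were Tmigd3 and Cpe, of Scg3 Gng4 and Fxyd6 (at 0.089 and 0.109), of Scg5 Pyy and Tmigd3 and of Resp18 Gpx3 and Tmigd3. Chgb had Adgrg4 and 1700110K17Rik, and Pcsk1n had Yars and Map3k15. The last 3 of these were listed at 0 in Ngn3-neg, which makes their ratios depend on the pseudocount. It also enters the ratios of genes low in Ngn3-neg, such as Trpm2, Pla2g7 and Arc. These distances rest on 3 libraries and describe them only.

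Each granin was present in Ngn3-neg at a small percentage of its level in Ngn3-TOMATO. Expressed as Ngn3-neg over Ngn3-TOMATO, the level was 1.41% (1.36% to 1.47%) for Chga and 1.59% (1.55% to 1.63%) for Chgb. The other 6 members ranged from 1.17% for Vgf to 2.28% for Scg3, with a family median of 1.51%. The hormone precursors at 1 or more in Ngn3-TOMATO had a median of 1.53%, running up to 2.60% for Gip, and Gast was listed at 0 in Ngn3-neg. The processing enzymes ran from 0.188% for Pcsk2 and 1.85% for Cpe to 84.3% for Furin, a protease of all cells. The Pcsk2 value has a wide interval, 0.0265% to 1.34%, at a level of 0.0173 in Ngn3-neg. Over 9333 genes at 10 or more in Ngn3-TOMATO the median was 101%, with quartiles of 70.2% and 137%. Which cells of the Ngn3-neg sort held the granin transcripts was not tested.

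**Figure D5:**
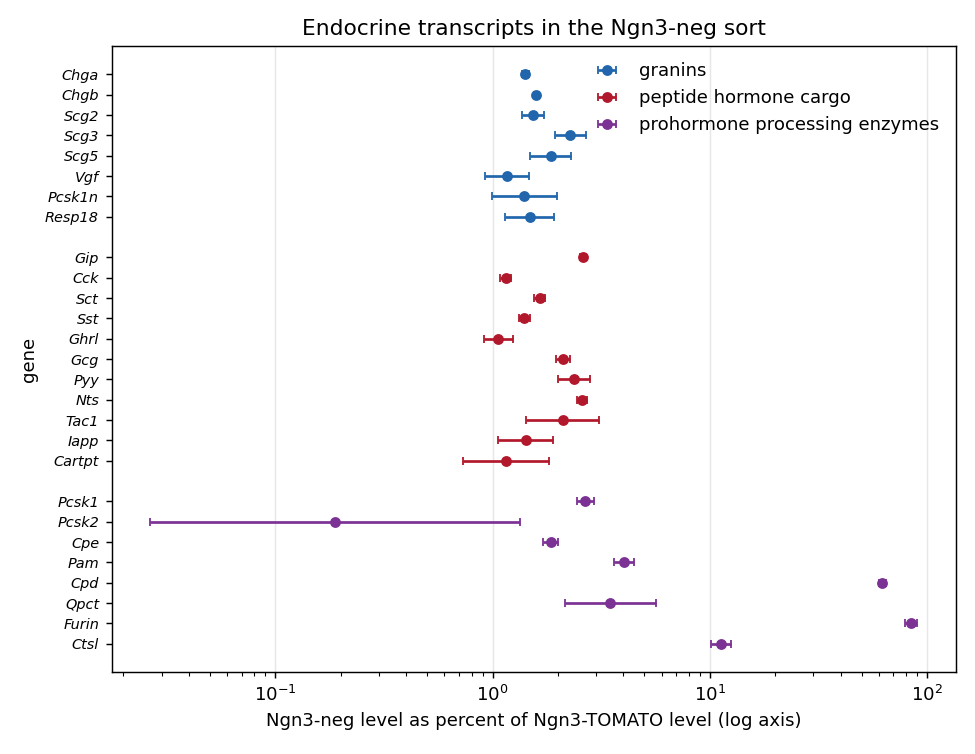
Level in Ngn3-neg as percent of the level in Ngn3-TOMATO (log axis) for granins, peptide hormone precursors and processing enzymes, with 95% counting intervals; genes listed at 0 in Ngn3-neg or under 1 in Ngn3-TOMATO are left out. The granins lie between 1.17% and 2.28%, within the range of the hormones.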

How the data were processed

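The members and lists were chosen with earlier results of these data known. FastQC, TopHat 1.5.0, Cufflinks and the mm10 build were used, per the submitters' processing notes. The authors' tables list, per the file headers, the length of every UCSC transcript, the deposited FPKM with its lower and upper limits, and a coverage value, the depth of reads along the transcript. The deposited FPKM summed to between 10160000000 and 10740000000 per library, in fixed proportion to coverage, so the library size that it was divided by is unknown. Symbols came from GENCODE M21 on the same genome by ends, length and overlap, ignoring strand (52166 of 59120). FPKM of transcripts of 200 bases or more, without mitochondrial ones, were summed per symbol and divided by 8192. Genes whose status marked too many reads to process were missing. Genes that reached 1 scaled FPKM in either library of a pair were compared as log2 ratios with a pseudocount of 1, which understates low genes. Standard errors were taken from the deposited limits, and intervals cover counting and read assignment only; fragment equivalents are the squared ratio of level to standard error. Start coordinates were raised by 1 to be 1-based. Named genes were all members, the 4 most abundant genes of each list and those past 2-fold against its median, and the nearest genes. Pcsk2, Furin, Gast, Gzma and the neuronal markers named were chosen after their values were seen. So were the enteroendocrine markers outside the granins and the hormone genes named as lower in GIP-GFP. The ratio step was run on simulated data with the counting error it assumes and without low genes, which checks the calculation only. Python 3.11.15, pandas 2.3.3, numpy 2.4.6 and matplotlib 3.10.9 were used.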

Additional observations from a re-analysis of the deposited data

How the results depend on the processing

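Each of the 24 member ratios kept its direction under every one of 11 other settings in which it was compared. The member median for GIP-GFP over Ngn3-neg was 5.78, against 6.22 with a pseudocount of 0.1, 5.42 with 5, and 5.38 with only transcripts that share an end with the annotation, which drops Scg5. For Ngn3-TOMATO over Ngn3-neg it was 5.94, against 5.21 with a pseudocount of 5 and 5.71 with equal totals. For GIP-GFP over Ngn3-TOMATO it was 0.30, against 0.22 with the median ratio set to 1, under which Scg3 fell short of 2-fold (0.97), and -0.12 with shared ends, so its sign rests on the members included. With the most abundant transcript alone Scg3 reached 8.49 (GIP-GFP) and 7.32 (Ngn3-TOMATO) over Ngn3-neg, because that transcript was listed at 0 there. Over Ngn3-neg, equal totals moved the median of all genes by -0.20 (GIP-GFP) and -0.23 (Ngn3-TOMATO), and equal totals without the 20 most abundant genes by 0.17 and 0.12. No paired analysis was possible because each group has 1 library. Counting precision limits Pcsk1n, Resp18, Vgf and Scg5 in Ngn3-neg, each at under 100 fragment equivalents.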

Other observations

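Scg2, Scg3 and Resp18 had a pair of transcript models each. The shorter Scg2 model, of 2365 bases, held 67.6% of the gene in GIP-GFP and 66.4% in Ngn3-TOMATO, against 76.5% in Ngn3-neg. The shorter Resp18 model, of 667 bases, held 76.1%, 72.7% and 100% in the same libraries. The longer Scg3 model, of 2207 bases, held 68.5% in GIP-GFP and 63.2% in Ngn3-TOMATO and was listed at 0 in Ngn3-neg. Models this similar share most reads, so the split between them is uncertain, above all at the depth of Ngn3-neg.

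Granins are also neuronal genes. The 12 markers of neurons and glia summed to 226 scaled FPKM in GIP-GFP and 68.1 in Ngn3-TOMATO, against 3.91 in Ngn3-neg. The neurofilament genes Nefl (115 in GIP-GFP, 18.0 in Ngn3-TOMATO, 0.555 in Ngn3-neg) and Nefm (93.6, 26.1 and 1.03) held most of the first 2 sums. Without them the order of the reporter libraries was reversed, with sums over the other 10 markers of 17.4 in GIP-GFP and 24 in Ngn3-TOMATO, against 2.32 in Ngn3-neg. Of those 10, 7 were lower in GIP-GFP than in Ngn3-TOMATO. The glial factor gene Sox10 was listed at 0 in all 3 libraries. Eras, which overlaps the end of Pcsk1n by 135 bases, was listed at 0 in every library. Whether reads were counted by strand is not stated in the labels.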
